A study of Mus musculus with 27 samples.

Results

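The values below concern cultured mouse bone marrow derived macrophages in the later of the states reached after imidazole propionate (ImP), set against unstimulated macrophages. They rest on 6 of the 27 libraries of the series: M15, M19 and M23 for the later state, and M13, M17 and M21 for the unstimulated one. These macrophages, as well as embryonic fibroblasts and cells labelled as aortic endothelium, were sequenced in bulk at 0 h and after 1 or 2 h with ImP, 3 libraries to a group. ImP is a metabolite that gut bacteria form from histidine, and the series asks which transcriptional programmes it raises in the setting of atherosclerosis. Macrophages of the later state had received ImP at 10 µg/mL, and the unstimulated macrophages, 0 h, had received none. No genotype, strain, sex or age is given for the macrophages, and no group given only medium for 1 or 2 h is described, so ImP and time in culture cannot be told apart. The labels do not say that the 3 libraries of a group came from separate cultures or animals, so a p-value here measures the spread among these libraries alone, and that spread may be technical.

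M15 and M19 carry the label 2 h, whereas M23 carries the label 1 h. M22, labelled 2 h, was counted with the earlier state beside M14 and M18, which are labelled 1 h. M22 and M23 were thus exchanged against their labels, so the later libraries were selected on measured values, the inflammatory genes of M22 and M23, each of which matches the other group. Those values are described here and not tested. The deposited tables of single groups place M22 and M23 as the labels do. The 27 library codes fall into 9 runs of 3 consecutive numbers. In 8 runs the codes rise in the order 0, 1 and 2 h, and the run 21, 22, 23 is the 1 in another order.

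NF-kB is a family of transcription factors that switches on cytokine and chemokine genes within minutes to hours of a stimulus, together with its own inhibitors. Nfkbia, the gene of the NF-kB inhibitor IκBα, lay at 39.9, 36.2 and 36.7 CPM (counts scaled to library size, here with TMM factors) in the unstimulated libraries M13, M17 and M21. It lay at 45.0, 36.8 and 40.9 CPM in M15, M19 and M23, and at 224, 215 and 232 CPM in M14, M18 and M22. M23 thus sat among the later and unstimulated libraries, and M22 sat with the 1 h libraries, far above all others. Tnf, which encodes the cytokine TNF, gave 15.2, 14 and 15.2 CPM unstimulated, 14.3, 18.5 and 18.3 CPM in the later state and 227, 220 and 266 CPM in the earlier state. Il1b, the gene of interleukin-1β, gave 1.33, 1.58 and 1.02 CPM, then 1.85, 2.98 and 0.955 CPM, against 106, 101 and 112 CPM. The neutrophil chemokine gene Cxcl2 gave 1.20, 1.58 and 1.22 CPM, then 1.4, 2.63 and 2.63 CPM, against 90.5, 96.0 and 101 CPM. Over 48 inflammatory and NF-kB genes averaging 1 CPM or more, M23 was nearer to M15 and M19 than to M14 and M18 for 40, and M22 was nearer to M14 and M18 for 48. For 11408 genes at that level outside this set, though not all of those, the shares were 57.3% for M23 and 55.6% for M22.

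**Figure D1:**
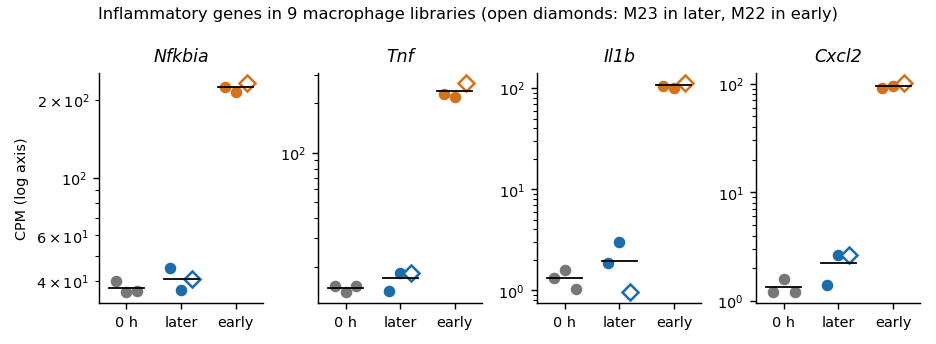
CPM on a log axis for 4 inflammatory genes in 9 macrophage libraries, grouped as unstimulated (0 h), later and earlier (early) ImP state. Bars are means of 3 libraries and open diamonds mark M23 (later) and M22 (early). M22 lies with M14 and M18 in every panel (232 CPM for Nfkbia), and M23 lies with M15, M19 and the 0 h libraries (40.9 CPM for Nfkbia).

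The libraries held 28.8 to 35.6 M counts. The macrophage identity of the cultures was carried by 15 of 15 macrophage markers at a mean of at least 10 CPM, whose summed level ran from 28000 to 30000 CPM unstimulated and from 26300 to 27900 CPM in the later state. That sum did not overlap between the states. Nor did the summed endothelial markers, at 144 to 156 against 157 to 173 CPM, with Tek, Emcn, Cldn5 and Robo4 at 0 counts in all 6 libraries. Of the 14 endothelial markers 2 averaged at least 10 CPM and 11 under 1 CPM, so the sum rests on few genes. Of the 5 tested, 2 lay wholly above and 1, Pecam1, wholly below, where 6.89% and 6.75% of all genes did so. Fibroblast markers were 7.04 to 13.4 against 9.03 to 15.4 CPM, smooth muscle markers 4.43 to 5.96 against 5.5 to 7.86 CPM with Myocd at 0, and neutrophil markers 139 to 155 against 126 to 144 CPM with Ly6g at 0. Dendritic cell (1.21 to 1.79 against 0.926 to 2.13 CPM), B cell (1.20 to 2.82 against 1.5 to 2.23 CPM), T and NK cell (31.2 to 33.5 against 31.9 to 38.5 CPM) and mast cell markers (0.0317 to 0.298 against 0.127 to 0.526 CPM) overlapped between the states, as did the 3 lists before them. The part of these levels in the results below was not tested. In bulk RNA, fewer cells of a type and less RNA per cell cannot be told apart.

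M17, an unstimulated library, stood apart from the rest. Its median chi-squared per degree of freedom against the other 8 macrophage libraries was 71.4, where the others had 15.1 to 21. It had 216 of 11485 genes at least 1.5-fold below every other library, where the others had 1 to 13. Gene length also ran unevenly: the rank correlation of a library's deviation with gene length was −0.334, −0.117 and 0.0958 in M13, M17 and M21, and 0.0738, 0.221 and 0.151 in M15, M19 and M23. Some results that rest on M17 or move with length are given with those values beside them.

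Bone morphogenetic proteins (BMPs) and TGF-β signal through receptor kinases that phosphorylate SMAD proteins. Phosphorylated SMADs enter the nucleus with SMAD4 and raise a small set of direct targets: the ID genes, whose products block basic helix-loop-helix transcription factors, and the inhibitory SMADs, SMAD6 and SMAD7, which feed back on the receptors. In macrophages, TGF-β in particular is known to temper activation.

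A few genes set the later state apart from the unstimulated one, and most of those with the largest differences were BMP and TGF-β targets. Smad6, Id3, Id2 and Skil were higher in each of M15, M19 and M23 than in any unstimulated library. M14, M18 and M22 also lay above every unstimulated library for these genes, so their rise is not particular to the later state. Between M15 and M19 and the 1 h libraries, 0 of 12 tested targets were called higher and 1, Id3, lower. Among all genes 0.052% and 0.609% were. Inflammatory genes of the later state lay near their unstimulated level. The formal test used M15 and M19 against M13, M17 and M21, with neither M22 nor M23 in the fit (edgeR's quasi-likelihood F-test, two-sided, Benjamini-Hochberg adjustment). It called 15 of 13465 genes higher at an adjusted p under 0.05 (0.111% of genes tested) and 1 lower (0.00743%), and 1043 genes had an unadjusted p under 0.05. Those reported here are Id3, Id2, Smad6, Skil, Bhlhe40, Mef2a, Top1, Enc1, Tent5c, Kif21b, Pwwp2b, Cdt1, Engase and a predicted gene, and the gene that fell is a predicted gene. Without M17 the same test called 26 higher and 3 lower, including all 15, without M13 or M21 it called 8 and 7 higher, and without M15 or M19 it called 3 in each case. Id2, Id3 and Smad6 were the 3 that passed without M15 and without M19. These fits leave 1 library at 2 h, which is assumed to vary like the libraries of the other groups.

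The promoters of 4 called genes are shown because Id2 and Smad6 are SMAD targets and Mef2a and Top1 were called higher against both the unstimulated and the 1 h libraries. They are RefSeq windows on GRCm38.p6 of the 250 bases before the gene's start, less any base inside an exon annotated in GENCODE M21, printed 5′ to 3′ on the gene's strand. Capitals mark GGCGCC, the core of a known BMP-responsive element, and CACGTG, the E-box bound by several basic helix-loop-helix factors.
Smad6, chr9:64022060-64022309, minus strand: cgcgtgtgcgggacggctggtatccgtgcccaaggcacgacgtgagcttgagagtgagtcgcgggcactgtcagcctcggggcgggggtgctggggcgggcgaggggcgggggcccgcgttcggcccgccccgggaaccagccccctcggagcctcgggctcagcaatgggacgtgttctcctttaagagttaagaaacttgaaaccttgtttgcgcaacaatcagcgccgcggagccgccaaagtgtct
Id2, chr12:25096254-25096342, minus strand: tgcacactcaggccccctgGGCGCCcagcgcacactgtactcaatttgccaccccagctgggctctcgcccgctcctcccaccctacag
Mef2a, chr7:67372859-67373108, minus strand: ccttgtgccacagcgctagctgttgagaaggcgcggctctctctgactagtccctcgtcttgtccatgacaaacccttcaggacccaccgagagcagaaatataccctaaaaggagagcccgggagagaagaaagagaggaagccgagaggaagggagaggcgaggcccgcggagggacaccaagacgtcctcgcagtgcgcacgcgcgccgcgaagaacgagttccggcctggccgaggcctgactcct
Top1, chr2:160645647-160645887, plus strand: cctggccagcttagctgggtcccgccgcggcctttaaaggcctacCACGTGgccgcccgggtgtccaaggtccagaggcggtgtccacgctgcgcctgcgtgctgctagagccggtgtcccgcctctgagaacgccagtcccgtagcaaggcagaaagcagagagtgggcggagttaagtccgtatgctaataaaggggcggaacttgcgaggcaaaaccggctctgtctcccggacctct
The Id2 stretch, which lies between exons of a longer annotated transcript, held 1 GGCGCC and the Top1 stretch held 1 CACGTG, and the Smad6 and Mef2a windows held 0 of either. Of the 16 called genes, 10 had a window in the table. GGCGCC stood in 1 of those 10, CACGTG in 1, and the SMAD palindrome GTCTAGAC in 0, searched on both strands over the 250 bases with no overlap among the matches. Among all 32851 windows of that length, 9.59% held GGCGCC, 6.02% held CACGTG and 0.167% held GTCTAGAC. A match describes letters only and does not show that a factor binds there.

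Smad6, the inhibitory SMAD of the BMP branch, had the largest fold change among the named calls. It lay at 0.507, 0.374 and 0.595 CPM in M13, M17 and M21, and at 6.36, 4.91 and 4.83 CPM in M15, M19 and M23. The groups did not overlap, and its means were 0.492 ± 0.11 and 5.37 ± 0.86 CPM (SD, n = 3 each). Smad6 rose by a log2 fold change of 3.52 ± 0.289 (SE) in M15 and M19 against 0 h, with an edgeR adjusted p of 7.64e-05. In the earlier libraries M14, M18 and M22 it lay at 2.56, 2.5 and 1.57 CPM, above every unstimulated and below every later library. The difference between M15 and M19 and the 1 h libraries M14 and M18 was 1.16 on the log2 scale, which did not pass the test (edgeR adjusted p = 0.151).

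Id3 gave 8.94, 8.33 and 7.21 CPM unstimulated and 41.2, 33.9 and 36.6 CPM in the later state, with means of 8.16 ± 0.88 and 37.2 ± 3.7 CPM (SD, n = 3 each). Every later library was above every unstimulated one, and M23 lay between M15 and M19. Id3 rose by 2.20 ± 0.110 (log2, SE) with an edgeR adjusted p of 5.15e-07. The earlier libraries were higher still, at 64.5, 61.7 and 59.9 CPM. M15 and M19 were below M14 and M18 by a log2 difference of −0.75 ± 0.114 (edgeR adjusted p = 0.00423), so that Id3 differed between the 2 h and 1 h libraries as well as from 0 h. That difference from 1 h lost the call without M14 or without M19 (edgeR adjusted p up to 0.146). M22, labelled 2 h, stood with the earlier libraries for this gene.

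Id2, the most abundant of the ID genes here, lay at 92.9, 90.6 and 90.5 CPM unstimulated and at 180, 164 and 181 CPM in the later state. Its means were 91.3 ± 1.4 and 175 ± 9.2 CPM (SD, n = 3 each), and no later library came near the unstimulated range. The fold change was 0.91 ± 0.0662 (log2, SE; edgeR adjusted p = 2.58e-05). M14, M18 and M22 gave 170, 185 and 184 CPM, which overlapped the later libraries. Per kilobase of exonic length the later means were 71.7 CPM for Id2, 20.8 for Id3, 5.57 for Id1 and 1.67 for Smad6, so Id2 remained the highest of these 4 in level although its fold was smaller.

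Skil encodes SnoN, a nuclear co-repressor that binds SMADs. It lay at 55.1, 66.6 and 71.6 CPM unstimulated and 121, 108 and 118 CPM in the later state, with no overlap. Skil rose by 0.83 ± 0.103 (log2, SE; edgeR adjusted p = 0.0147). The earlier libraries, at 127, 117 and 137 CPM, overlapped the later ones.

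Id1 and Smad7 showed the same order without passing that test. Id1 gave 2.09, 0.805 and 1.82 CPM, M17 being the lowest, against 6.90, 5.05 and 7.44 CPM, and its log2 fold change was 1.93 ± 0.324 with an edgeR adjusted p of 0.0576. Smad7, the inhibitory SMAD shared by both branches, gave 4.22, 4.37 and 4.66 CPM against 5.69, 8.84 and 7.06 CPM, with a log2 fold change of 0.72 ± 0.196 and an edgeR adjusted p of 0.427. The groups did not overlap for either gene, and the later libraries spread more than the unstimulated ones.

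**Figure D2:**
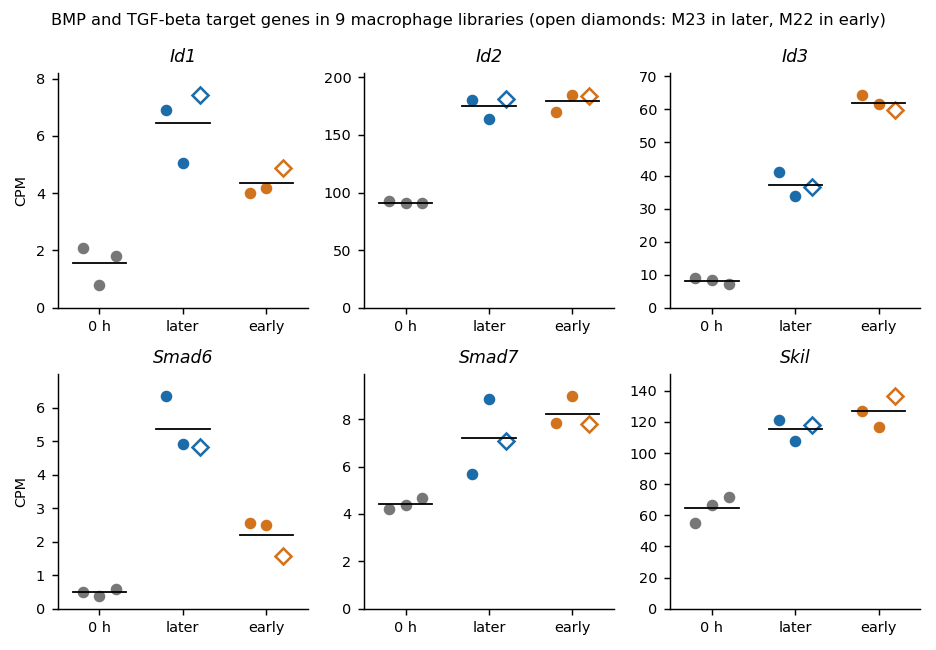
CPM on linear axes from 0 for 6 BMP and TGF-β targets in the 9 macrophage libraries, by state, with bars for means of 3 libraries and open diamonds for M23 (later) and M22 (early). In all 6 panels the 3 later libraries lie above the 3 unstimulated ones, with Smad6 highest in the later state (4.83 to 6.36 CPM) and Id3 highest in the early state (59.9 to 64.5 CPM). The 6 genes are a choice from 14 listed targets. Listed targets whose ranges overlapped, such as Junb, Bambi, Tgif1 and Pmepa1, are not plotted.

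Of 14 listed BMP and TGF-β targets, 12 could be tested. Of these 4 rose (Id2, Id3, Smad6 and Skil), none fell and 8 did not pass, against 0.111% of all genes called higher. The list was chosen with earlier results of these data known, so its share of calls is a description and no independent support. The median log2 fold change of the 12 was 0.77, where that of all genes tested was 0.00. Members that did not pass were spread widely: Junb had 0.53 (edgeR adjusted p = 0.81), Pmepa1 0.30 (0.956), Ski 0.18 (0.558), Tgif1 0.08 (0.79) and the decoy receptor gene Bambi −0.05 (0.968). Junb gave 74.1, 29.9 and 67.2 CPM unstimulated, the low value being M17, against 80.5, 84.1 and 72.6 CPM, and the ranges overlapped. Id4 and Atoh8 were at no more than 0.0317 and 0.0951 CPM in the unstimulated libraries and were not tested. Over the 6 libraries of the exchanged grouping, 7 of the 12 had every later library above every unstimulated one and 0 the reverse, where 6.89% and 6.75% of all genes did so.

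The components upstream of these targets did not pass the test. Of 5 signal-transducing SMAD genes tested 0 were called, with a median of 0.15. Smad1 lay at 23, 24.3 and 23.8 CPM against 24.9, 27.9 and 26.1 CPM, a difference of 0.15 (edgeR adjusted p = 0.731), and Smad5 and Smad4 differed by 0.16 and 0.18 (adjusted p of 0.701 and 0.627). Of 11 receptor genes 0 were called, with a median of 0.04, and the type II receptor gene Acvr2b had the largest difference at 0.61 (edgeR adjusted p = 0.645). Of 10 ligand and antagonist genes and 17 genes for SMAD modulators 0 were called either. Only 0.111% of all genes were called higher, so 0 calls in such short lists does not show that they were unchanged. In the exchanged grouping 3 of the 5 SMAD genes, 2 of 11 receptors and 5 of 17 modulators lay wholly above, and 0 wholly below. Among all genes 6.89% and 6.75% did so. Bmp4, Bmp7 and Nog were at 0 counts in all 6 libraries.

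The other called genes had smaller differences. Bhlhe40, a basic helix-loop-helix repressor tied to the circadian clock, lay at 35.3, 35.1 and 34.6 CPM unstimulated and at 50.0, 50.4 and 50.3 CPM in the later state. The libraries of each state agreed within 1 CPM, and the groups were far apart by comparison. The log2 fold change was 0.52 ± 0.0719 (SE; edgeR adjusted p = 0.0147), and M14, M18 and M22 gave 48.6, 48.5 and 49.3 CPM. A gene on the opposite strand overlaps Bhlhe40, as one does Mef2a, Engase, Filip1l and Junb. The strand of counting is not given in the sources used here, so reads of such partners cannot be told apart.

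Mef2a and Top1 rose against 0 h and also against the 1 h libraries. Mef2a, a MADS-box transcription factor, lay at 253, 260 and 269 CPM unstimulated and at 360, 349 and 360 CPM in the later state, while M14, M18 and M22 gave 275, 251 and 262 CPM. It differed by 0.44 ± 0.0641 from 0 h (log2, SE; edgeR adjusted p = 0.0166) and by 0.43 ± 0.0709 from 1 h (edgeR adjusted p = 0.00773). M22 lay within the unstimulated range for Mef2a and M23 lay with M15.
Top1, which encodes the DNA topoisomerase that relaxes supercoils during transcription, gave 113, 108 and 129 CPM, then 164, 165 and 176 CPM, against 122, 124 and 142 CPM in M14, M18 and M22. It differed by 0.49 ± 0.0749 from 0 h (edgeR adjusted p = 0.0213) and by 0.42 ± 0.0828 from 1 h (edgeR adjusted p = 0.0382). These comparisons share M15 and M19, and leaving out either of them ended each call of these genes against 0 h and against 1 h.

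Enc1, an actin-binding Kelch protein gene, gave 86.0, 95.1 and 91.4 CPM against 135, 128 and 119 CPM (log2 fold change 0.53, edgeR adjusted p = 0.0127). Tent5c, which encodes a poly(A) polymerase, gave 27.4, 33.1 and 30.2 against 49.7, 44.6 and 43.5 CPM (0.64, adjusted p = 0.0166). The kinesin gene Kif21b gave 44.9, 42.3 and 51.7 against 67.1, 67.4 and 68.3 CPM (0.54, adjusted p = 0.0243). For these 3 genes every later library, M23 included, was above every unstimulated one. Pwwp2b, a chromatin protein gene, gave 29.2, 27.4 and 29.6 against 39.6, 45.0 and 44.6 CPM (0.56, adjusted p = 0.0243), and Cdt1, the replication licensing factor, 48.9, 46.3 and 44.9 against 62.1, 66.3 and 61.0 CPM (0.46, adjusted p = 0.0481). Engase, a cytosolic glycosidase gene, was the exception: 27.6, 21.9 and 23.6 CPM unstimulated, 36.6 and 39.4 CPM in M15 and M19 (0.64, adjusted p = 0.0243), but 25.1 CPM in M23, within the unstimulated range.

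M23 took no part in that fit. Of the 15 genes called higher, it lay above all 3 unstimulated libraries for 14, within the interval from M15 to M19 for 5, and nearer than M22 to the mean of M15 and M19 for 14. The earlier libraries were also mostly above 0 h for these genes: M14 for 13, M18 for 12 and M22 for 12 of 15. The number of these genes above 0 h therefore separated M23 from the earlier libraries by little, and the distance to M15 and M19 separated it from M22 by more.

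**Figure D3:**
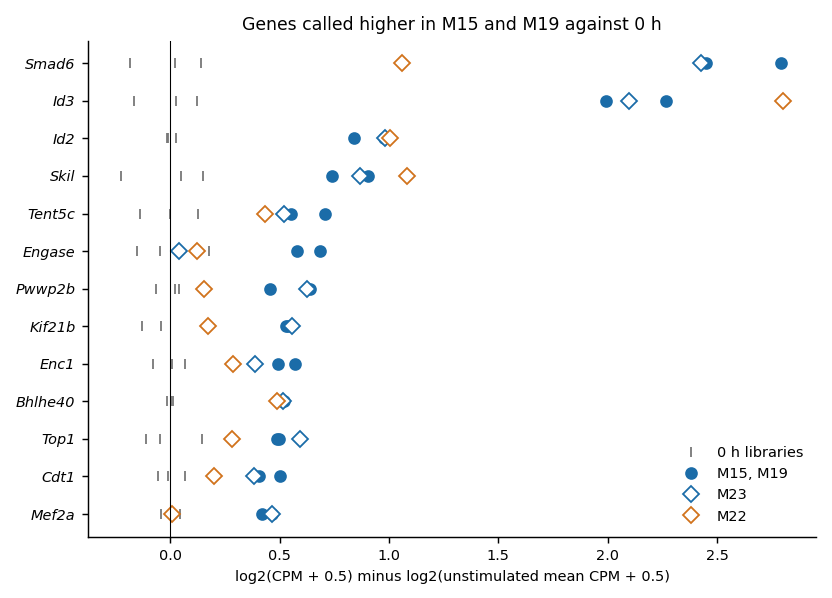
Difference on the log2(CPM + 0.5) scale from the mean of the unstimulated libraries for 13 genes called higher in M15 and M19. Grey ticks are the 3 unstimulated libraries, filled circles M15 and M19, open blue diamonds M23 and open orange diamonds M22. M23 lies beyond the ticks for all but Engase, and M22 lies among them for Mef2a and Engase.

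With the labels as given, 2 h (M15, M19 and M22) against 0 h, the same test over 9 libraries called 4 of 13251 genes higher (0.0302%) and 0 lower. Before adjustment 815 genes had a p under 0.05. By DESeq2 there were 14 higher and 1 lower, and by limma-voom 3 higher and 0 lower. Without M15 or M19 the edgeR count was 1 or 2 higher. The 4 genes were Id2 (log2 fold change 0.95 ± 0.0612, edgeR adjusted p = 3.58e-06), Skil (0.92, adjusted p = 0.00499), Bhlhe40 (0.51, adjusted p = 0.00499) and Filip1l (0.79, adjusted p = 0.042). Id2, Skil and Bhlhe40 were called in both fits, and these are genes for which the earlier and the later libraries lie close together. Filip1l, a filamin-interacting protein gene, lay at 9.92, 12.7 and 12.6 CPM unstimulated, 18.8, 19 and 20.1 CPM in the later state and 18, 20.6 and 23.2 CPM in the earlier one. Id3 and Smad6 were not called with the labels as given, with log2 fold changes of 2.46 ± 0.307 (edgeR adjusted p = 0.182) and 3.12 ± 0.534 (edgeR adjusted p = 0.255). Under the label 2 h stand values of 41.2, 33.9 and 59.9 CPM for Id3, and of 6.36, 4.91 and 1.57 CPM for Smad6, and DESeq2 called both genes. Both fits share the unstimulated libraries and M15 and M19.

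Without a test, the exchanged grouping had 37 genes higher (0.279% of 13251) and 44 lower (0.332%) in the later state with no overlap between the 3 and 3 libraries and at least 1.5-fold on the CPM + 0.5 scale. At any fold, 913 genes (6.89%) lay wholly above and 895 (6.75%) wholly below. The labelled grouping had 55 higher (0.415%) and 41 lower (0.309%) at 1.5-fold, and 695 (5.24%) and 836 (6.31%) at any fold. In all 39 genes met the 1.5-fold rule in both groupings, which is 39 of the 81 in the exchanged and 39 of the 96 in the labelled grouping. Genes that met it with the labelled grouping alone included Il1b, Socs3, Nfkbiz, Tnfaip3, Dusp1, Fosb, Junb and Nr4a1, which are early inflammatory or immediate early genes that are high in M22. Nfkbiz, which encodes an atypical IκB protein, lay at 5.55, 6.09 and 5.82 CPM unstimulated, at 6.43, 8.10 and 7.23 CPM in M15, M19 and M23, and at 137 CPM in M22. The genes just inside the 1.5-fold line were Kif7 and Tent5c at 1.51 and Ovol1 at 1.53, and those just outside were Pwwp2b and Usp2 at 1.49 and Cep131 at 1.48.

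Of the 37 genes, 22 had a mean of at least 1 CPM. Beside the BMP targets they included Egr3, an immediate early transcription factor (4.53, 4.14 and 5.32 CPM against 9.07, 7.57 and 5.61 CPM), Cspg4, a proteoglycan gene (2.69, 1.49 and 1.75 against 2.80, 4.21 and 3.53 CPM), and Phospho1, a phosphatase gene (3.39, 1.44 and 2.74 against 4.42, 4.10 and 4.17 CPM). Egr3 in M23 exceeded the highest unstimulated library by less than 1 CPM, and Cspg4 in M15 exceeded M13 by less still. Filip1l and Tent5c, whose values are given above, were also among them. H3c15, Mmp11, Ovol1, Pxmp2 and Kif7 were below 4 CPM in every one of the 6 libraries. Kif7 gave 2.47, 1.06 and 2.18 CPM unstimulated and 2.80, 3.26 and 3.36 CPM later. For Phospho1 and Kif7 the lowest unstimulated value was that of M17, and their folds rest in part on it. Of the 44 lower genes 24 were predicted ones and 16 had a mean of at least 1 CPM. Ptger1, a prostaglandin E2 receptor gene, gave 10.5, 12 and 11.1 CPM against 7.86, 4.84 and 5.18 CPM, with a log2 fold change of −0.82 in M15 and M19 that did not pass the test (edgeR adjusted p = 0.302). Ugt1a6a, a glucuronosyltransferase gene, gave 9.70, 7.36 and 6.55 against 3.50, 5.75 and 4.46 CPM (−0.77, adjusted p = 0.558), and Pde2a, a phosphodiesterase gene, 4.79, 3.45 and 4.99 against 1.69, 1.75 and 0 CPM (−1.36, adjusted p = 0.501). None of the named lower genes passed the test, and Amt, Ccdc159, Sema6d, Stkld1, Xlr4a, Zfp580 and Zfp708 were below 4 CPM in all 6 libraries.

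Inflammatory genes, which chose the libraries, are given as a description. Of 27 tested members of the NF-kB inflammatory list 0 were called in M15 and M19 against 0 h, with a median of 0.07. In the exchanged grouping 2 lay wholly above and 1 wholly below, where 6.89% and 6.75% of all genes did so. Of 24 genes for NF-kB subunits and feedback inhibitors 0 were called, and 3 lay wholly above and 0 wholly below, beside the same shares of all genes. Between M15 and M19 and the 1 h libraries M14 and M18, in contrast, 16 of the 27 and 11 of the 24 were lower. In all, 82 genes were lower (0.609%) and 7 higher (0.052%). M22 and M23 were left out of that fit because of inflammatory genes, so these calls lend no separate weight to the grouping. With the labels as given, 0 of the 27 and 0 of the 24 were called against 0 h, with medians of 0.48 and 0.23. In the labelled grouping 3 and 4 lay wholly above and 0 wholly below, against 5.24% and 6.31% of all genes. Socs3, a feedback inhibitor of cytokine receptors, gave 1.11, 1.06 and 0.992 CPM unstimulated and 1.53, 2.14 and 1.24 CPM in the later state, against 48.6, 49.5 and 51.5 CPM in M14, M18 and M22. Its difference from 0 h in M15 and M19 was 0.79 (edgeR adjusted p = 0.308).

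Immediate early genes had no call among 30 tested against 0 h, with a median of 0.16 where all genes had 0.00. In the exchanged grouping 10 of the 30 lay wholly above and 1 wholly below, against 6.89% and 6.75% of all genes. In the labelled grouping these were 8 and 0, against 5.24% and 6.31%. Dusp1, a MAP kinase phosphatase gene, gave 33.5, 26.5 and 33.1 CPM against 35.9, 41.1 and 39.8 CPM (0.31, edgeR adjusted p = 0.535), and Egr3 had 0.84 (adjusted p = 0.0889). Of 28 interferon response genes 0 were called, with a median of −0.10 and 0 wholly above or below. Of 31 genes of the mTOR pathway, the growth-control kinase pathway, 0 were called, with a median of 0.02. Nisch, the gene of the imidazoline receptor candidate nischarin, lay at 346, 322 and 316 CPM against 343, 353 and 326 CPM and differed by 0.08 ± 0.0624 (edgeR adjusted p = 0.763).

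Sterol genes lay slightly higher in the later state. Over 24 tested genes of cholesterol synthesis and its control the median log2 fold change was 0.09, and 8 lay wholly above in the exchanged grouping and 0 below, where 6.89% and 6.75% of all genes did so. In the labelled grouping 2 lay wholly above and 0 below, against 5.24% and 6.31% of all genes, with a median difference of 0.03. Hmgcs1, the HMG-CoA synthase gene, gave 133, 149 and 140 CPM unstimulated and 155, 165 and 160 CPM later, against 125, 130 and 126 CPM in the earlier state. Insig1, a sterol sensor that holds the SREBP complex in the endoplasmic reticulum, gave 104, 105 and 93.4 CPM, then 123, 124 and 124 CPM. No later library overlapped the unstimulated range for either gene. Their differences from 0 h were 0.19 and 0.29, neither of which passed (edgeR adjusted p of 0.558 and 0.308). Srebf2, the master transcription factor of the pathway, and Sqle, the squalene epoxidase gene, had 0.18 and 0.13 (adjusted p of 0.536 and 0.683). Idi1 gave 60.7, 61.0 and 58.7 CPM unstimulated and 62.9, 58.5 and 71.4 CPM later, with overlap (log2 0.01, edgeR adjusted p = 0.979). Fdps, Lss and Dhcr7 also overlapped, at −0.03, −0.05 and −0.07. Hmgcs1, Insig1, Srebf2, Sqle and Idi1 were chosen after their values were seen.

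**Figure D4:**
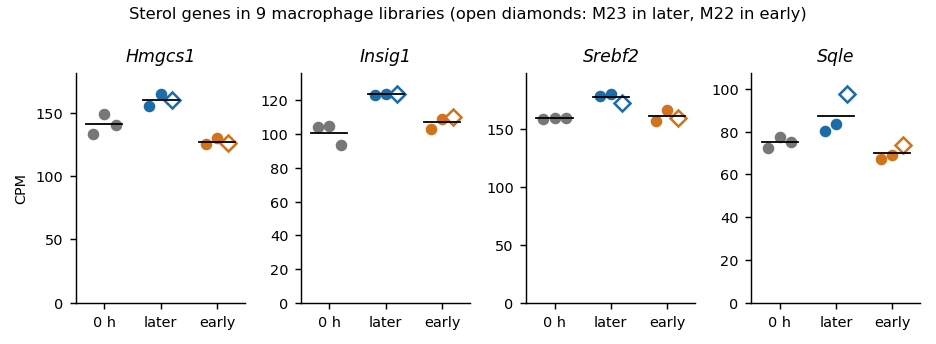
CPM on linear axes from 0 for 4 sterol genes in 9 macrophage libraries by state, with bars for means of 3 libraries and open diamonds for M23 (later) and M22 (early). Every later library lies above every unstimulated one in the 4 panels (123 to 124 against 93.4 to 105 CPM for Insig1), and none of these differences passed the test. The 4 genes were chosen after their values were seen, and Idi1, whose ranges overlapped, is not plotted.

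Genes for ribosomal proteins and for nuclear-encoded oxidative phosphorylation lay slightly lower. Of 79 ribosomal protein genes 0 were called, 1 had a positive and 78 a negative log2 fold change, where 50.2% of all genes were positive, and the median was −0.15. In the exchanged grouping 35 of 79 lay wholly below and 0 above, where 6.75% and 6.89% of all genes did so. Of 33 oxidative phosphorylation genes 0 were called, 32 were negative and the median was −0.14, with 10 of 33 wholly below, against the same 6.75%. Rps28 gave 180, 177 and 169 CPM against 144, 140 and 158 CPM (−0.30, edgeR adjusted p = 0.302), and Ndufa2, of respiratory complex I, 39.6, 37.9 and 32.8 against 28.9, 26.9 and 31.5 CPM (−0.40, adjusted p = 0.384). These are short genes, and the length trends given above differ between the states. After removal of the length trend from every library the medians were −0.08 and −0.09, and the median of the 13 mitochondrially encoded genes moved from −0.11 to 0.02, which turns its direction. The part of length in these differences was not tested further. Without M17 the numbers wholly below were 40 of 79 and 11 of 33, where 11.7% of all genes were.

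**Figure D5:**
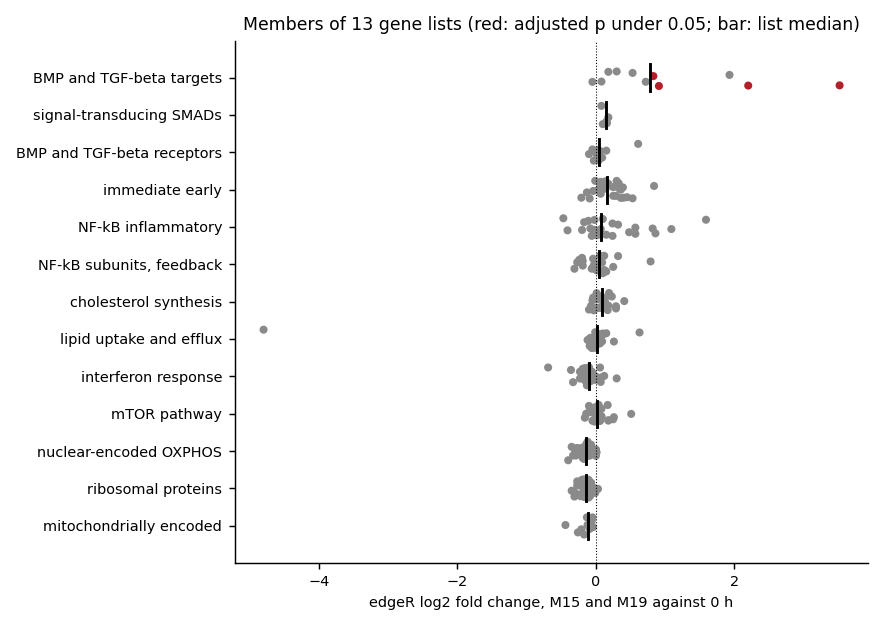
Log2 fold change of M15 and M19 against 0 h for the members of 13 gene lists, 1 point per gene, red where the edgeR adjusted p is under 0.05, with a bar at each list's median. Genes not reported here count in the medians and are not plotted. The targets of BMP and TGF-β have the highest median (0.77) and 4 red points, and the single point near −4.8 is Olr1 (adjusted p = 0.591), named after its value was seen.

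Smad6 also served to find genes with a like pattern. Over the 9 macrophage libraries and 11485 genes that averaged 1 CPM or more, the named genes with the highest Pearson correlation with Smad6 on the log2(CPM + 0.5) scale were Kif21b (0.958), Lemd3 (0.952), Enc1 (0.946), Midn (0.940) and Cdt1 (0.938). These 9 points share the states of the libraries, and the correlations are a description. Lemd3, an inner nuclear membrane protein that binds SMADs, lay at 26.1, 24.8 and 25.2 CPM unstimulated and 30.7, 31.1 and 28.8 CPM later. Midn, whose product midnolin carries proteins to the proteasome, lay at 47.0, 45.1 and 47.0 CPM and 60.7, 60.1 and 63.0 CPM. Neither passed the test in M15 and M19 against 0 h (log2 0.28 and 0.38, edgeR adjusted p of 0.459 and 0.0871). M14, M18 and M22 gave 28.1, 29.2 and 27.1 CPM for Lemd3, where M18 was above M23, and 49.7, 52.4 and 50.0 CPM for Midn, between the unstimulated and the later libraries.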

How the data were processed

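Whole-number expected counts per gene symbol were deposited by the authors for 27 libraries, 9 of them macrophage libraries. The submitters' processing notes list RSEM, STAR, cutadapt and FastQC, with DESeq2 in R 4.3.2, and the GRCm38.p6 build. Settings and the strand of counting are not given in the sources used here. Of 25192 symbols 98.1% matched GENCODE M21. Chi-squared per degree of freedom was at least 5.89 over the 36 pairs of macrophage libraries, so no pair agreed within sampling noise.

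Macrophage libraries were fitted in R 4.3.3 with edgeR 4.0.16 (genes kept by filterByExpr at 10 counts, scaling by TMM, robust quasi-likelihood F-test, two-sided, Benjamini-Hochberg adjustment over all genes tested, threshold 0.05). One fit used 9 libraries as labelled and the other the 7 without M22 and M23. Errors of fold changes are standard errors, and the biological coefficient of variation was 0.126 and 0.109. CPM values are TMM-scaled over the 9 libraries, and descriptive folds use a pseudocount of 0.5 CPM. The grouping that exchanges M22 and M23 was described without a test. On simulated counts for the fit without M22 and M23 (13163 genes), 100 genes were changed at each fold, all averaging 1 CPM or more. There edgeR recovered 61% of 1.5-fold and 89% of 2-fold changes, and 11 of 161 calls were false. The real fit called 16 genes, and the adjustment is stricter with fewer calls, so these shares may be too high for it.

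Genes were named by a rule: called genes averaging 1 CPM or more with no overlap between groups, genes meeting the descriptive rule at 1.5-fold, up to 4 members of each list by fold change, all BMP and TGF-β targets, Nisch, 4 inflammatory genes and the 5 genes most like Smad6. Predicted genes were counted and not named. Some other genes count in the totals and are not reported here. The members, lists and the fit without M22 and M23 were chosen with earlier results of these data known. Alternatives were DESeq2 1.42.0, limma-voom (limma 3.58.1), other scalings, filters and pseudocounts, a replicate block, leaving out each library and, added after the values were seen, removal of the trend on gene length.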

Additional observations from a re-analysis of the deposited data

Results flagged for a closer look

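For 3 genes called higher in M15 and M19 against 0 h, the 2 h libraries also differed from the 1 h libraries M14 and M18 in a test of that difference (edgeR's quasi-likelihood F-test within the fit without M22 and M23). Mef2a was higher at 2 h than at 1 h by 0.43 on the log2 scale and Top1 by 0.42, while Id3 was lower by a log2 difference of −0.75. The adjusted p-values over 13465 genes were 0.00773, 0.0382 and 0.00423 in that order, and in each case both 2 h libraries lay on the same side of both 1 h libraries. The differences did not all hold when 1 library was left out: Top1 lost the call without M14, M18, M15 or M19, Mef2a without M18, M15 or M19, and Id3 without M14 or M19. Such fits leave 1 library in a group, which is assumed to vary like the other groups. The highest adjusted p over the alternatives was 0.452 for Top1, 0.366 for Mef2a and 0.146 for Id3. The direction held in each alternative.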

How the results depend on the processing

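With the labels as given, 4 genes were higher at 2 h: DESeq2 called 14 higher and 1 lower, no low-count filter 10 higher, the compared groups alone 2, and leaving out a library 1 to 6 higher. For M15 and M19 against 0 h, DESeq2 called 28 higher and 7 lower, no filter 107 and 56, limma-voom 0 lower, and leaving out a library 3 to 26 higher and 0 to 3 lower. Whether runs of library codes pair the samples could not be settled. Same-run correlations were −0.0596 to 0.0845 over 7 libraries, where groups of 2 deviate as mirror images. They were −0.404 to 0.147 over 9, where M22 and M23 stand in their labelled groups. With a replicate block by run, 3 genes were higher (Id2, Id3 and Smad6) and 0 lower, and the labelled fit kept its 4 calls in number. For 2 h against 1 h, DESeq2 called 16 higher, no filter 44 higher and 161 lower, and leaving out a library 0 to 5 higher and 55 to 61 lower. The exchanged description gave 8 higher and 7 lower at 2-fold, 22 and 16 at a mean of 1 CPM, 9 and 4 at 5 CPM, 90 and 116 with a pseudocount of 0.1, 15 and 15 with 1, and 57 to 117 and 62 to 103 without a library. The labelled description gave 16 and 4 at 2-fold, 36 and 10 at 1 CPM, 19 and 0 at 5 CPM, and 74 to 126 and 65 to 94 without a library. Causes were not tested. Among single genes 777 values kept their side of the threshold, 82 lost the call, 15 gained it and no called value turned direction. Id2, Id3 and Smad6 passed in all 14 alternatives to the fit without M22 and M23, and Id1 passed in 7. Libraries of 28.8 to 35.6 M counts leave genes near 0.5 CPM, such as Smad6 at 0 h, resting on few counts.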
